A study of Mus musculus with 16 samples.

Results

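The G protein-gated inward rectifier potassium channels, called GIRK channels, were followed here through the 4 genes that encode their subunits: Kcnj3 (GIRK1), Kcnj6 (GIRK2), Kcnj9 (GIRK3) and Kcnj5 (GIRK4). They were chosen by name, by matching the Ensembl gene identifiers of the count files to mouse symbols, and all 4 were found among the 38924 genes of the files. Each had enough counts to be tested, as did 18111 genes in all. RNA was sequenced from the periaqueductal gray, a midbrain region of the descending pain control pathway, of male mice. The series is about morphine tolerance and the part that the protein RGSz1 plays in it. The 16 polyA libraries fell into 4 groups of 4, each library pooling punches of 2 animals: naive wild-type mice, wild-type mice given morphine, naive mice labelled RGSz1 knockout, and mice labelled RGSz1 knockout given morphine. The labels name no vehicle group and give no age, strain, morphine dose or time and do not say how the RGSz1 gene was altered.

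GIRK channels are one of the ways in which opioid receptors silence neurons. When morphine binds the mu receptor, the receptor activates G proteins of the Gi, Go and Gz kinds, the freed beta-gamma subunits bind the channel, and potassium leaves the cell, which moves the neuron away from firing. RGS proteins, RGSz1 among them, speed up the return of the alpha subunit to its resting state and so shorten the signal. The channel is a ring of subunits: GIRK1 needs another subunit to reach the cell surface, GIRK2 can form channels on its own, GIRK3 joins other subunits and affects where the channel goes in the cell, and GIRK4 is best known beside GIRK1 in the heart.

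The 4 genes share the stretch of coding sequence that makes the potassium-selective filter. It is shown because it is the part that makes them 1 family, and because it shows how far apart the genes are at the level of bases, which is what lets a read be assigned to a single gene. Each line gives the coding strand, 5′ to 3′, from transcripts of GENCODE M21 (GRCm38), and the capitals mark the codons of the glycine-tyrosine-glycine signature of potassium channels.
Kcnj3: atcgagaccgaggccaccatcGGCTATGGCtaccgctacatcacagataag
Kcnj6: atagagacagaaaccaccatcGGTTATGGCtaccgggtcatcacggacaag
Kcnj9: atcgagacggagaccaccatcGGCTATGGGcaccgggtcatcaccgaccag
Kcnj5: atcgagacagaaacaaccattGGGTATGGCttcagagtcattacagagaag
Over these 51 bases, Kcnj6 and Kcnj9 each differed from Kcnj3 at 10 positions and Kcnj5 at 13. Over the whole coding sequence, identity between pairs ran from 63.9% (Kcnj3 and Kcnj6) to 71.3% (Kcnj5 and Kcnj6). The longest run of bases that any transcript of one gene shared exactly with one of another was 22 bases long (tcttcaccaccctggtggacct, in Kcnj5 and Kcnj6).

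The genes lie apart in the genome (GRCm38, positions from GENCODE M21). Kcnj3 is on the plus strand of chromosome 2 at 55435970 to 55598145, and the other genes are on minus strands: Kcnj6 on chromosome 16 at 94748636 to 94997701, Kcnj9 on chromosome 1 at 172320501 to 172329318, and Kcnj5 on chromosome 9 at 32314707 to 32344350. Other inward rectifier genes are their neighbours: Kcnj10, the channel of astrocytes, begins 11892 bases beyond Kcnj9, Kcnj1 begins 28143 bases beyond Kcnj5, and Kcnj15 begins 259857 bases beyond Kcnj6. Kcnj9 shares its chromosome with Rgs20, the gene of RGSz1, at a distance of 167 Mb. The start of Kcnj3 is overlapped by Gm26794, a noncoding gene of the other strand with 1014 counts over the 16 libraries, and the library kit did not mark the strand. The genes that overlap Kcnj6 or Kcnj9 had at most 1 count.

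Gene counts per library totalled 19077000 to 54995323. Rgs20 levels did not separate the genotype labels: its group means ± SD were 12.8 ± 0.82 CPM (counts relative to the library total, scaled by TMM) in wild-type naive, 13.1 ± 1.04 in wild-type morphine, 12.6 ± 0.95 in knockout-labelled naive and 12.1 ± 0.67 in knockout-labelled morphine libraries (n = 4 each), and edgeR's adjusted p between genotypes was 0.943 in naive and 0.669 in morphine libraries. The counts therefore do not check the genotype label, and every genotype difference below is one between labels. The 6 general neuron markers summed to 4361 to 5302 CPM over all libraries, and the 5 forebrain markers to 3.16 to 8.27 CPM. Wild-type naive 2 and knockout-labelled morphine 3 stood apart from the rest in meningeal fibroblast markers, so each edgeR test was also run without both. Levels, shares and correlations were not computed without them. The median sum of these markers in knockout-labelled morphine libraries, 78.9 CPM, was also above the highest knockout-labelled naive library, 61.5 CPM.

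Kcnj9 was the most abundant of the 4 genes and the steadiest. Per kilobase of exon it stood at 13.1 ± 0.70 CPM (mean ± SD, n = 16), above 78.7% of the tested genes. Kcnj3 followed at 9.62 ± 0.62 CPM per kilobase, above 71.3% of them. Kcnj6 (1.81 ± 0.16) and Kcnj5 (1.54 ± 0.25) lay much lower, above 34.6% and 32.2%. In all 16 libraries Kcnj9 came first and Kcnj3 second. Kcnj6 was above Kcnj5 in 14 of 16, and their ranges overlapped. In bulk tissue, fewer cells that express a gene and less RNA per cell cannot be told apart.

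As shares of the summed level per kilobase, Kcnj9 made up 50.2%, Kcnj3 36.9%, Kcnj6 6.98% and Kcnj5 5.92% (means of 16 libraries). The summed level was 26.4 ± 1.02 CPM per kilobase in wild-type naive, 26.4 ± 0.58 in wild-type morphine, 26.4 ± 0.92 in knockout-labelled naive and 25.0 ± 1.28 in knockout-labelled morphine libraries (SD, n = 4). The ranges of these 4 groups overlapped. The share of Kcnj6 rested on the length used. Its annotated exons joined together span 7633 bases, but its longest transcript has 3627, and with that length its share was 13.0%. The annotation release behind the counts is not given in the sources used here, so which length fits Kcnj6 better is not known. The order of the 4 genes was the same in all 16 libraries with the longest transcript or the coding length.

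**Figure D1:**
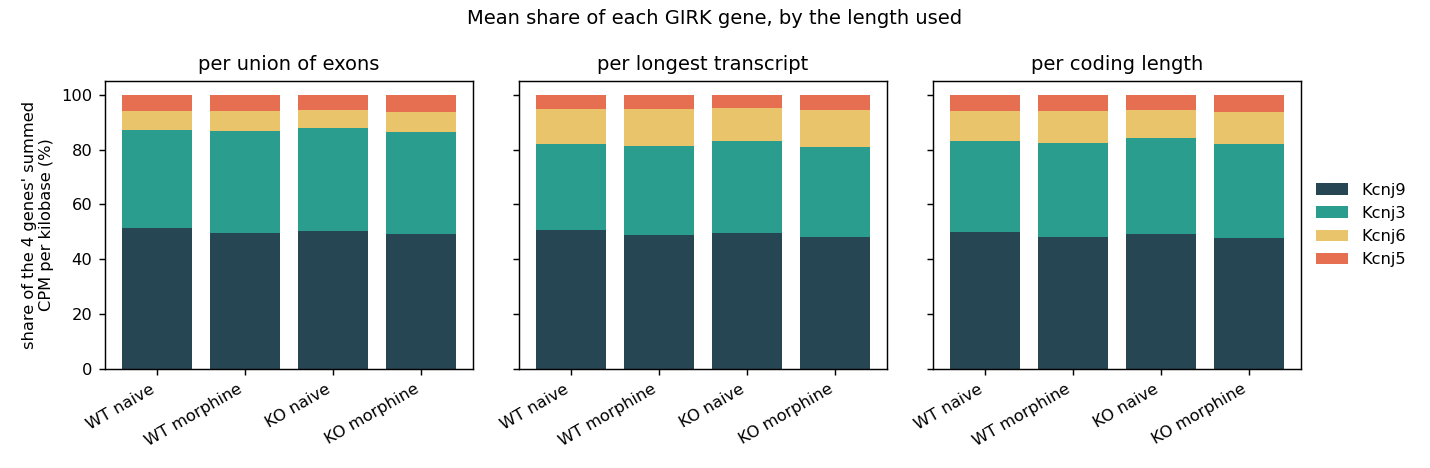
Mean share (%) of each GIRK gene in the summed CPM per kilobase of the 4 genes, for the 4 groups of 4 libraries (WT wild type, KO labelled knockout), with 3 choices of gene length. Kcnj9 and Kcnj3 fill most of each bar in every group, and the share of Kcnj6 rises from 6.98% with the union of exons to 13.0% with the longest transcript, over all libraries.

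Kcnj3 encodes GIRK1, the partner subunit of most channels of the family. It stood at 47.7, 49.7, 52.8 and 47.2 CPM in wild-type naive libraries and at 51.1, 54.4, 49.7 and 48.8 CPM in wild-type morphine libraries. It stood at 47.0, 57.1, 51.3 and 51.9 CPM in knockout-labelled naive and at 47.3, 53.7, 47.4 and 45.6 CPM in knockout-labelled morphine libraries. The 4 groups overlapped, with the highest value in knockout-labelled naive 2 and the lowest in knockout-labelled morphine 4. Ordered by mean, knockout-labelled naive (51.8 ± 4.12 CPM) came first, then wild-type morphine (51.01 ± 2.47), wild-type naive (49.3 ± 2.55) and knockout-labelled morphine (48.5 ± 3.57; SD, n = 4), and no neighbours in this order were separated. Morphine against naive gave a log2 fold change of 0.04 ± 0.06 (SE) in wild-type and -0.10 ± 0.06 in knockout-labelled libraries (edgeR, quasi-likelihood F test; adjusted p = 0.711 and 0.321).

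Kcnj6 encodes GIRK2, the subunit without which most neuronal GIRK currents are lost. Its level was 12.9, 13.9, 15.2 and 13.2 CPM in wild-type naive libraries and 14.4, 14.5, 16.7 and 12.5 CPM in wild-type morphine libraries. In knockout-labelled libraries it was 13.6, 12.7, 12.4 and 12.8 CPM naive and 13.5, 14.4, 12.9 and 15.6 CPM with morphine. The knockout-labelled naive libraries lay low and close together, but each of the other groups reached down into their range. By mean, the order was wild-type morphine (14.6 ± 1.71 CPM), knockout-labelled morphine (14.1 ± 1.19), wild-type naive (13.8 ± 1.02) and knockout-labelled naive (12.9 ± 0.53; SD, n = 4), again with overlap between all neighbours. The log2 fold change with morphine was 0.07 ± 0.08 (SE) in wild-type and 0.13 ± 0.08 in knockout-labelled libraries (edgeR adjusted p = 0.641 and 0.329). Kcnj6 had the largest fold between its highest and lowest group mean of the 4 genes, 1.13.

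Kcnj9 encodes GIRK3, the subunit that directs channels within the cell. It stood at 55.7, 59.5, 57.8 and 60.1 CPM in wild-type naive and at 58.4, 53.0, 54.3 and 59.2 CPM in wild-type morphine libraries. It stood at 56.4, 59.6, 56.6 and 55.1 CPM in knockout-labelled naive and at 53.0, 55.3, 52.1 and 50.1 CPM in knockout-labelled morphine libraries. The knockout-labelled morphine libraries included the 2 lowest of the 16, and only their highest, 55.3, reached into the range of the naive libraries of the same label. The order by mean was wild-type naive (58.3 ± 1.98 CPM), knockout-labelled naive (56.9 ± 1.91), wild-type morphine (56.2 ± 3.05) and knockout-labelled morphine (52.6 ± 2.16; SD, n = 4), and neighbours overlapped.

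With morphine, Kcnj9 differed by a log2 fold change of -0.05 ± 0.04 (SE) in wild-type and -0.11 ± 0.04 in knockout-labelled libraries, and its adjusted p missed the threshold of 0.05 in both (edgeR, 0.504 and 0.0917). In the knockout-labelled comparison this is a level of 0.923 of the naive one, with a 95% interval of 0.868 to 0.982. Averaged over both genotypes the log2 fold change was -0.08 ± 0.03 (adjusted p = 0.0606). That average passed without wild-type naive 1 (adjusted p = 0.0482) or wild-type morphine 4 (adjusted p = 0.0373), and over all alternatives its adjusted p ran from 0.0373 to 0.545.

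Cell type markers moved in the same knockout-labelled comparison. All 10 serotonin neuron markers were called higher, against 5.67% of all genes. Their summed level was 147 to 390 CPM in naive and 578 to 1781 CPM in morphine libraries. Leaving out any of 10 single libraries ended the call of Fev, and any of 5 that of Tph2 or Slc6a4. The calls of Lmx1b, Maob and En1 held without any single library. Of 10 oligodendrocyte markers, 7 were called lower, against 5.83% of all genes. Their sum went from 10262 to 11817 CPM down to 7126 to 9071 CPM. In the wild-type comparison 0 of the 10 serotonin markers passed (4.41% of all genes did). Their sums were 254 to 901 CPM in naive and 719 to 939 CPM in morphine libraries. Their median log2 fold change was 0.56 there and 1.95 in knockout-labelled libraries. The interaction test called 0 of the 10 serotonin markers, 0 of the 10 oligodendrocyte markers and 0% of all genes. A difference between the genotypes in these markers was therefore not shown. No member of either list was at 0. Vessel markers were lower with morphine in both genotypes. Of 6 endothelial markers 4 fell in each, against 2.07% (wild-type) and 5.83% (knockout-labelled) of all genes. Their sum went from 142 to 179 CPM down to 110 to 127 CPM in wild-type libraries. In knockout-labelled libraries it went from 160 to 182 CPM down to 106 to 143 CPM. Of 7 astrocyte markers only Sox9 fell in both genotypes, and of 8 microglia markers only Cx3cr1. The median log2 fold change of the astrocyte markers was -0.03 in wild-type and 0.04 in knockout-labelled libraries. The knockout-labelled call of Sox9 (edgeR adjusted p = 0.0482) ended without any of 14 single libraries. Pdgfrb of the 6 pericyte and smooth muscle markers fell in both, and Rgs5 in knockout-labelled libraries. Of 6 general neuron markers, Stmn2 and Syt1 were called higher in knockout-labelled libraries and 0 in wild-type ones. Their median log2 fold change was 0.11 in both. Slc6a3 and Pitx3 of 5 dopamine markers were also called higher in knockout-labelled libraries. So were Prph of 4 motor and cholinergic markers tested and Slc17a8 of 3 glutamatergic markers, but 0 of 4 GABAergic markers. When the mean log2 level of the serotonin markers was added to the fit as a covariate, the log2 fold change of Kcnj9 in knockout-labelled libraries was -0.08 ± 0.07 (edgeR adjusted p = 0.572). It was -0.11 ± 0.04 (SE) without the covariate. The serotonin sums did not overlap between naive and morphine libraries of this label, so the fit cannot separate morphine from these markers. Whether serotonin or other neuron, oligodendrocyte or vessel markers have a part in the Kcnj9 value was not tested.

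Kcnj5 encodes GIRK4 and was the least abundant and most variable member. Its level was 6.35, 8.19, 8.97 and 5.98 CPM in wild-type naive and 8.76, 7.26, 6.71 and 6.99 CPM in wild-type morphine libraries. In knockout-labelled libraries it was 7.65, 5.58, 6.16 and 7.94 CPM naive and 8.95, 7.72, 5.38 and 7.06 CPM with morphine. Low and high libraries occurred in every group, and the 16 libraries spanned 1.67-fold. By mean, wild-type morphine (7.43 ± 0.91 CPM) led wild-type naive (7.37 ± 1.44), knockout-labelled morphine (7.28 ± 1.49) and knockout-labelled naive (6.83 ± 1.14; SD, n = 4), with overlap throughout. The log2 fold change with morphine was -0.00 ± 0.16 (SE) in wild-type and 0.09 ± 0.16 in knockout-labelled libraries (edgeR adjusted p = 0.999 and 0.778).

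**Figure D2:**
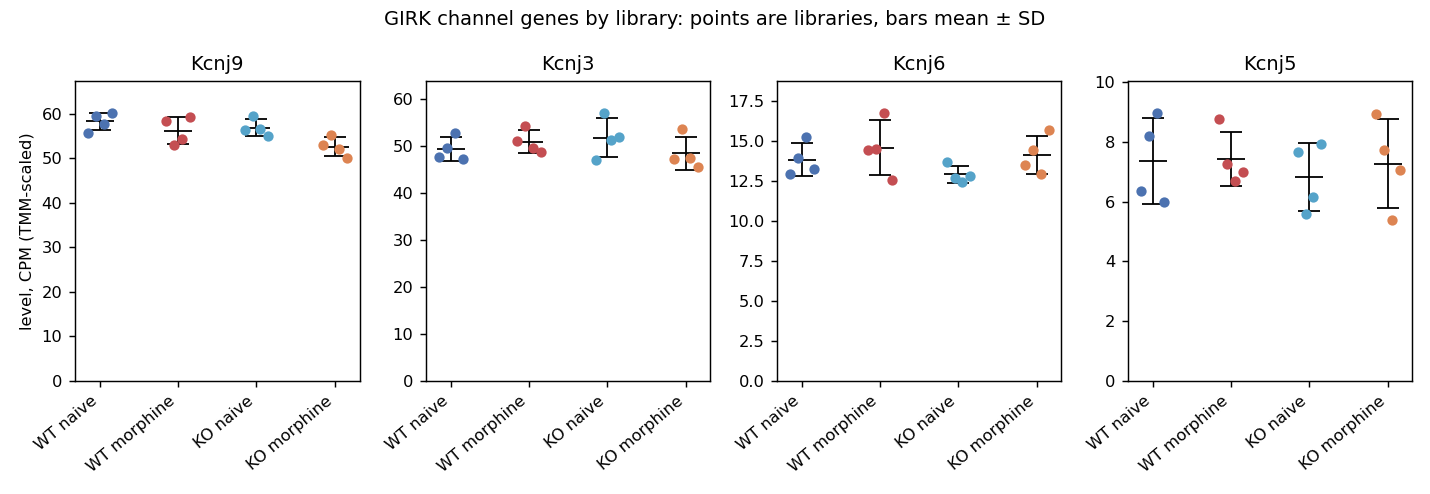
Level of each GIRK gene in CPM (linear axis from 0) in the 4 libraries of each group (WT wild type, KO labelled knockout), with the group mean ± SD as bars. The groups overlap for every gene, except KO morphine (50.1 to 55.3 CPM) and WT naive (55.7 to 60.1 CPM) for Kcnj9. These groups differ in both label and treatment and were not compared in a test, and the share of all genes without overlap between them was not computed. The 2 lowest Kcnj9 points are of KO morphine, and Kcnj5 spreads within all groups.

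The spread of the genes within groups differed. The pooled coefficient of variation within groups was 4.14% for Kcnj9, 6.49% for Kcnj3, 8.58% for Kcnj6 and 17.5% for Kcnj5. Counting error alone would give 2.32%, 2.44%, 4.67% and 6.55% in the same order. Kcnj5 was counted 107 to 454 times per library, and Kcnj9 1035 to 3124 times.

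The question whether morphine or the RGSz1 label changed GIRK expression was put to all 4 genes in 7 comparisons. With edgeR's quasi-likelihood test and Benjamini-Hochberg adjustment over all 18111 genes, 0 of 4 passed with morphine in wild-type libraries, where 4.41% of all tested genes did. The count was also 0 of 4 with morphine in knockout-labelled libraries (11.5% of all genes), for knockout-labelled against wild-type naive libraries (0.906%, made of 0.442% higher and 0.464% lower) and for the same contrast under morphine (0.53%). It was 0 of 4 for the interaction of genotype and morphine (0% of genes), for morphine averaged over genotypes (17.1%, made of 9.02% higher and 8.03% lower) and for genotype averaged over treatments (1.53%). At an unadjusted p under 0.05 the count was 1, Kcnj9, with morphine in knockout-labelled libraries, between genotypes under morphine and in both averages, and 0 in the other 3 comparisons. DESeq2 and limma-voom gave the same counts for these genes, adjusted and unadjusted. For the interaction over all genes, edgeR and limma-voom called 0 and DESeq2 107, and 2200 genes had an unadjusted edgeR p under 0.05.

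Between genotypes the differences were as small. In naive libraries the log2 fold change of knockout-labelled against wild type was 0.07 ± 0.06 for Kcnj3, -0.10 ± 0.08 for Kcnj6, -0.04 ± 0.04 for Kcnj9 and -0.11 ± 0.16 for Kcnj5 (± SE). Under morphine it was -0.08 ± 0.06, -0.04 ± 0.08, -0.10 ± 0.04 and -0.02 ± 0.16 in the same order, and the smallest adjusted p was 0.466, that of Kcnj9. In each contrast 3 or 4 of the 4 genes were lower in the knockout-labelled libraries, without passing the test. The interaction, the morphine response of knockout-labelled minus that of wild-type libraries, was largest in size for Kcnj3 at -0.14 ± 0.08 (adjusted p = 0.508).

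The intervals say how large a change these libraries leave room for. Over the 4 comparisons of single groups, the 95% intervals of the log2 fold change of Kcnj9 stayed between -0.20 and 0.05. Those of Kcnj3 stayed between -0.22 and 0.19 and those of Kcnj6 between -0.27 and 0.31. For Kcnj5 they reached from -0.45 to 0.44, the widest of the 4 genes. In simulated counts with the real means and library sizes, edgeR recovered 74% and 82% of 1.5-fold changes in the wild-type and knockout-labelled morphine comparisons and 82% and 66% between genotypes in naive and morphine libraries, among genes above 1 CPM on average. Of the smallest changes simulated, which were larger than the 1.13-fold of Kcnj6, it recovered 52%, 58%, 52% and 66% in the same order. These shares are over 50 randomly drawn genes for each size of change, so they do not give the recovery of a GIRK gene. The simulated morphine comparisons had 166 (wild-type) and 175 (knockout-labelled) calls, against 798 and 2082 in the data.

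**Figure D3:**
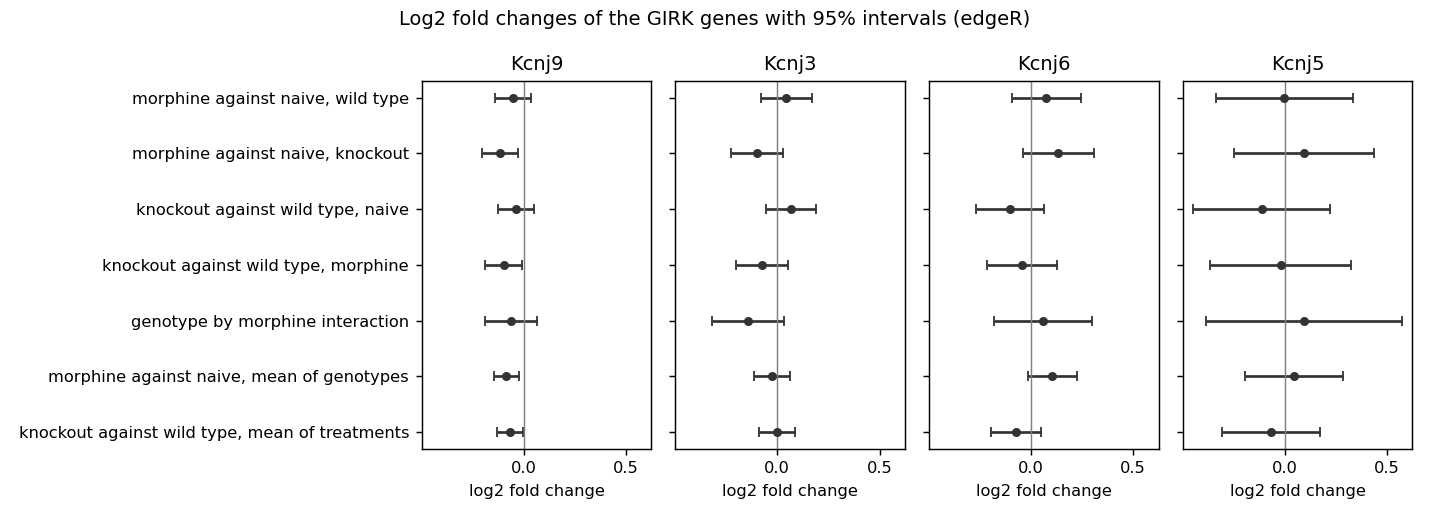
Log2 fold change of each GIRK gene with its 95% interval in the 7 comparisons (edgeR, n = 4 libraries per group; "knockout" is the label). The Kcnj9 points lie below 0 in all 7 comparisons with short intervals, the Kcnj5 intervals are widest, and none of the 28 passes the adjusted threshold.

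No pair of the 4 genes passed a test of moving together from library to library. Over the 16 libraries, Pearson's r of log2 CPM between pairs ran from -0.36 (Kcnj6 with Kcnj9) to 0.39 (Kcnj5 with Kcnj6), and Spearman's rho of these pairs was -0.37 and 0.45. The permutation p of the pair Kcnj5 and Kcnj6 was 0.140 for r and 0.0817 for rho, or 0.454 and 0.486 after Benjamini-Hochberg adjustment over the 6 pairs, and no pair passed. That of Kcnj6 and Kcnj9 was 0.173 for r and 0.162 for rho, with the same adjusted values of 0.454 and 0.486. Without the 2 libraries farthest from the median of the first-named gene of the pair, r was 0.24 for Kcnj5 with Kcnj6 and -0.06 for Kcnj6 with Kcnj9. Kcnj3 and Kcnj9, the 2 abundant members, had r = 0.32 and rho = 0.18 (permutation p = 0.227 and 0.508, adjusted 0.454 and 0.883), and r = 0.36 without the 2 farthest libraries. With the values centred within each group, these 3 pairs had r = 0.34, -0.39 and 0.25. Without the 2 libraries farthest for the first-named gene on the centred values, r was 0.33, -0.13 and -0.16. The sign for Kcnj3 with Kcnj9 thus turned on leaving out libraries extreme for Kcnj3, and libraries extreme for Kcnj9 were not left out in turn.

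Other genes followed single members more closely, as the nearest of 12779 genes must to some degree. By Pearson's r of log2 CPM over the 16 libraries, the genes like Kcnj5 included Mok (0.85) and Gpr85, an orphan receptor of neurons (0.83). Kcnj6 was most like Mmp16, a membrane-bound metalloproteinase (0.84), Sgsm2 (0.81) and Med12l (0.81). Kcnj9 was most like Bok, of the BCL2 family (0.82), the liver X receptor gene Nr1h2 (0.80) and the kinase gene Lats2 (0.78). Kcnj3 had the weakest matches: Dnah8, a dynein of cilia (0.75), the ubiquitin ligase gene Rnf128 (0.74) and Zfp770 (0.74). For Kcnj5 the likeness to Mok was 0.88 with values centred within groups, where differences between the groups are removed. For Kcnj9 and Bok it was 0.68.

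Upstream of the channel, the receptors that open GIRK channels were mostly unmoved by the test. With morphine in wild-type libraries, 1 of 15 rose and 0 fell (2.34% and 2.07% of all genes), and the median log2 fold change was 0.06, against -0.01 over all genes. In knockout-labelled libraries 3 rose and 0 fell (5.67% and 5.83% of all genes), with a median of 0.09 against -0.00. Oprm1, the mu receptor gene, stood at 11.7 ± 0.96 CPM in wild-type naive, 11.7 ± 1.62 in wild-type morphine, 11.5 ± 0.75 in knockout-labelled naive and 11.2 ± 1.05 in knockout-labelled morphine libraries (SD, n = 4), and its log2 fold changes with morphine were 0.00 ± 0.09 and -0.04 ± 0.09 (SE; adjusted p = 0.994 and 0.866). Oprk1, the kappa receptor gene, was higher in knockout-labelled libraries by 0.37 ± 0.08 with treatments averaged (edgeR adjusted p = 0.0169), the 1 of 15 that edgeR called there, against 0.685% of genes called higher (DESeq2 called 2 and limma-voom 1). Between naive libraries its difference was 0.43 ± 0.11 (edgeR adjusted p = 0.0755), which DESeq2 and limma-voom called, as did edgeR without knockout-labelled morphine 3.

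Npy1r, a receptor for neuropeptide Y, was the receptor that rose in both genotypes. It went from 10.2 ± 0.60 to 13.0 ± 0.90 CPM with morphine in wild-type and from 10.2 ± 0.64 to 13.3 ± 2.14 CPM in knockout-labelled libraries (SD, n = 4), with log2 fold changes of 0.35 ± 0.09 and 0.39 ± 0.09 (SE; edgeR adjusted p = 0.0376 and 0.0122). The groups did not overlap in either genotype. The knockout-labelled call held without any single library, with adjusted p up to 0.0486. The wild-type call was lost without wild-type naive 1, 2, 3 or 4, knockout-labelled naive 1 or 4, or wild-type morphine 1, 2 or 4 (adjusted p up to 0.111). Htr1a, the serotonin receptor of raphe neurons and itself a serotonin marker, rose by 0.51 ± 0.12 in knockout-labelled libraries (adjusted p = 0.016, and 0.0557 without knockout-labelled naive 2).

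Among G protein genes, calls within a genotype came from the knockout-labelled comparison, and none of these genes passed the interaction test. Of 5 alpha subunit genes of the Gi, Go and Gz kinds, edgeR called 0 with morphine in wild-type libraries (4.41% of all genes). DESeq2 and limma-voom also called 0, and 0 had an unadjusted p under 0.05. In knockout-labelled libraries edgeR and limma-voom called 0 and DESeq2 2, and 2 had an unadjusted p under 0.05 (edgeR called 11.5% of all genes). Averaged over genotypes edgeR called 1 of 5, a share near the 17.1% of all genes called there (9.02% higher). It was Gnaz, the alpha subunit of Gz, at 0.09 ± 0.03 (edgeR adjusted p = 0.0418, while limma-voom called 1 gene and DESeq2 2). Leaving out any of 11 single libraries ended the Gnaz call (adjusted p up to 0.0873). Of 15 beta and gamma genes, whose products open the channel, all 3 tools called 0 in wild-type libraries, where 4 had an unadjusted edgeR p under 0.05. In knockout-labelled libraries 4 rose and 2 fell (5.67% and 5.83% of all genes), with a median of 0.08. The 6 calls became 3 without knockout-labelled morphine 4 and 0 with the serotonin score as a covariate. Gng2 rose from 200.2 ± 7.45 to 245 ± 19.5 CPM (SD, n = 4), by a log2 fold change of 0.29 ± 0.05 (SE; adjusted p = 0.00167), and its groups did not overlap. Gng4 rose by 0.30 ± 0.06 (adjusted p = 0.00501), and Gng7 fell by 0.21 ± 0.04 on the log2 scale (adjusted p = 0.00587), from 36.3 ± 1.18 to 31.4 ± 0.95 CPM. Each of these 3 calls held without any single library.

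Among RGS genes of Gi and Go signals, 16 of 17 were tested, and 0 passed with morphine in wild-type libraries by any of the 3 tools, nor at an unadjusted p under 0.05. In knockout-labelled ones 1 rose and 1 fell, a share near the 11.5% of all genes called there: Rgs9 by 0.27 ± 0.06 (adjusted p = 0.0117) and Rgs5, a gene of pericytes, by -0.36 ± 0.10 (adjusted p = 0.0347). Without knockout-labelled naive 2 or knockout-labelled morphine 4 neither was called, and Rgs5 also lost its call without knockout-labelled naive 3 or 4 or morphine 1 or 2. Of 10 partners of GIRK channels and of the receptor complexes around them, 1 rose in wild-type and 2 in knockout-labelled libraries (2.34% and 5.67% of all genes). Kctd8, an auxiliary subunit of the GABA-B receptor, rose in both, by 0.19 ± 0.05 and 0.18 ± 0.05 (adjusted p = 0.0414 and 0.0341), and averaged over both genotypes by 0.18 ± 0.04 (adjusted p = 0.00215). The calls within a genotype each ended without any of several single libraries (9 and 5 of the 16, adjusted p up to 0.157 and 0.132), while the averaged call held without any of them. With the serotonin covariate none of the 3 Kctd8 calls passed. Snx27, which sorts GIRK2 and GIRK3 back to the surface or away from it, was called only in the average (0.07 ± 0.02, adjusted p = 0.0458), and 13 of the 16 single libraries ended that call.

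Of the 11 other inward rectifier genes 8 were tested. With morphine 0 passed in wild-type libraries by any of the 3 tools (1 at an unadjusted p under 0.05), and 1 fell in knockout-labelled ones, a share near the 11.5% of all genes called there (5.83% lower): Kcnj11, the pore of the ATP-sensitive channel, at -0.33 ± 0.10 (adjusted p = 0.0377). Kcnj11 was also the 1 called between genotypes under morphine, at -0.49 ± 0.10 (adjusted p = 0.0264, against 0.276% of genes called lower; DESeq2 called it and limma-voom did not), and each of the 2 calls ended without any of 6 single libraries: knockout-labelled morphine 1, 2 or 4 for both, knockout-labelled naive 2, 3 or 4 for the first, and wild-type morphine 1, 2 or 4 for the second. Of 10 other effectors of opioid receptors, namely calcium channels, adenylyl cyclases and Kv channels, 0 passed in wild-type libraries by any of the 3 tools or at an unadjusted p under 0.05, and 2 fell in knockout-labelled ones (5.83% of all genes). Adcy1, an adenylyl cyclase stimulated by calcium, went from 201 ± 6.62 to 171 ± 7.90 CPM there (-0.23 ± 0.05, adjusted p = 0.00507), without overlap, and held its call without any single library. Kcna2 fell by 0.22 ± 0.07 (adjusted p = 0.0435), and leaving out any of 10 single libraries ended its call. Without knockout-labelled morphine 3, 5 effectors were called in place of 2. With the serotonin covariate, the knockout-labelled morphine calls of Gng2, Gng4, Gng7, Rgs9, Rgs5, Kctd8, Adcy1 and Kcna2 were not past the threshold. Nor were the averaged calls of Gnaz and Snx27, while the knockout-labelled morphine calls of Npy1r and Kcnj11 were. Htr1a lost its call too, but it is part of the serotonin score, so that loss cannot be read. Over all genes, calls went with this covariate from 2082 to 304 in the knockout-labelled comparison and from 3089 to 456 in the average.

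**Figure D4:**
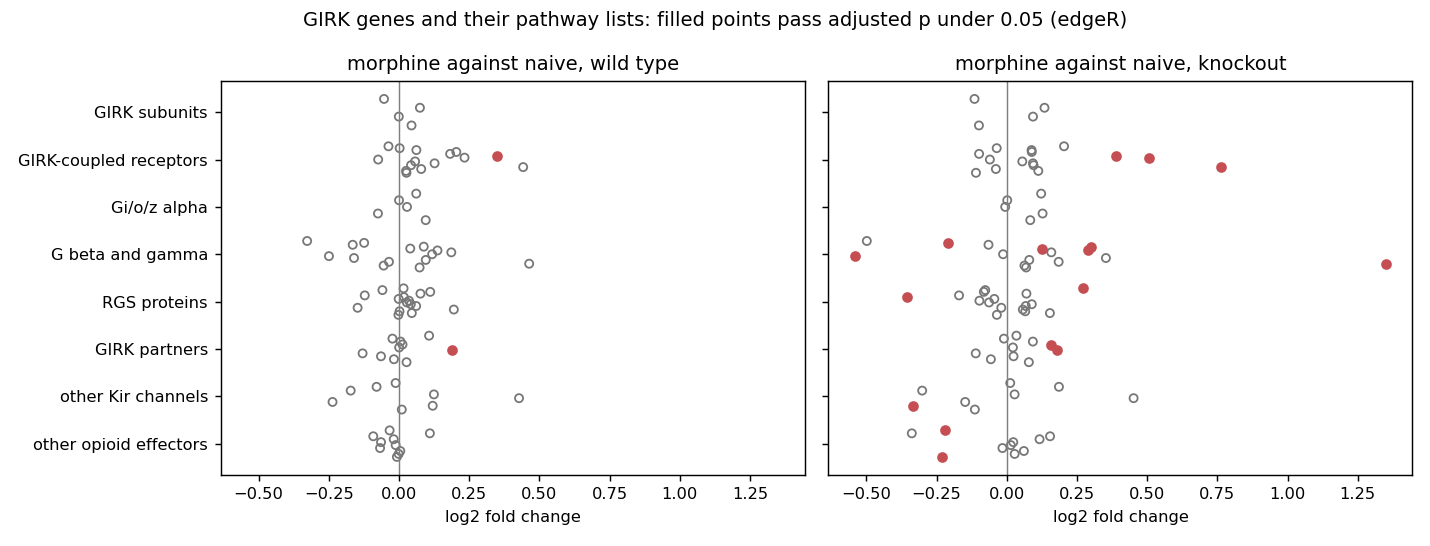
Log2 fold change with morphine of each tested gene of the GIRK subunits and 7 fixed pathway lists, in wild-type (left) and knockout-labelled (right) libraries; filled points have an edgeR adjusted p under 0.05. The 4 GIRK points lie within -0.11 to 0.13 in both panels with none filled, and the beta and gamma row has 6 filled points on the right and 0 on the left.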

How the data were processed

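The deposited files hold read counts per gene for 16 libraries, made by the authors with HTSeq on mm10, per the submitters' processing notes. Limma is named there too. Which aligner, gene annotation and strand option were used is not given in the sources used here. Reads that HTSeq tallied outside single genes (38.2 to 40.6%) stayed out of library sizes and tests. Gene symbols, positions and lengths came from GENCODE M21 (GRCm38), which matched 37607 of 38924 identifiers.

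Low genes were removed by filterByExpr with a minimum count of 10. After TMM scaling, edgeR 4.0.16 (R 4.3.3) fitted all 16 libraries together, 1 coefficient for each group, with the robust quasi-likelihood method. Benjamini-Hochberg adjusted p under 0.05 over 18111 genes was the threshold. The test was checked on simulated counts. Log2 CPM used a prior count of 2, and correlations 100000 permutations, two-sided. The labels call the libraries biological replicates, and in no pair did counts agree within sampling noise (chi-square per gene of at least 3.72).

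The GIRK genes, lists, tests and alternatives were chosen with earlier results of these data known. Named were the 4 genes, Rgs20, Oprm1, up to 4 called members of each list with the smallest p, and the 3 tested genes most like each GIRK gene (mean log2 CPM of at least 1, no predicted genes or pseudogenes), of which 1 is not reported here.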

Additional observations from a re-analysis of the deposited data

How the results depend on the processing

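None of the 28 tests of a GIRK gene passed the threshold, and of 688 values under alternatives 2 did, both for Kcnj9 with morphine averaged over genotypes: -0.093 on leaving out wild-type naive 1 and -0.097 on leaving out wild-type morphine 4, where the number of GIRK genes called was 1 in place of 0 (range without 1 library: -0.097 to -0.069, and 0 to 1 genes). In 650 values the sign was kept and in 38 it turned, each within 0.106 of 0 on the log2 scale. For Kcnj5 with morphine in wild-type libraries it turned to 0.00175 with DESeq2's size factors, 0.00122 with no filter, 0.00434 with DESeq2's Wald test, 0.00136 with only the groups compared, 0.041 with the serotonin score as covariate and 0.044 without wild-type naive 2 and knockout morphine 3. For Kcnj5 between genotypes under morphine it turned to 0.00138 with limma-voom, 0.00272 with the serotonin score and 0.099 without those 2 libraries, where the genotype average turned to 0.0033 for Kcnj3 and 0.019 for Kcnj5. Leaving out 1 library gave ranges with both signs for Kcnj5 with morphine in wild-type (-0.091 to 0.106) and knockout-labelled libraries (-0.026 to 0.207) and averaged (-0.013 to 0.103), under morphine between genotypes (-0.137 to 0.097) and in the interaction (-0.026 to 0.208). They did so too for Kcnj6 with morphine in wild-type libraries (-0.0036 to 0.141), between genotypes under morphine (-0.108 to 0.036) and in the interaction (-0.0061 to 0.138), and for Kcnj3 between genotypes, averaged (-0.029 to 0.019). The correlation of Kcnj3 with Kcnj6 went from -0.029 to 0.093 when centred within groups, and that of Kcnj3 with Kcnj9, centred, from 0.25 to -0.16 without the 2 farthest libraries.

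Shares by longest transcript and by coding length were 32.6% and 34.2% for Kcnj3 and 13.0% and 11.2% for Kcnj6. The replicate block called 0 of 4 GIRK genes in every comparison, and the number of all genes called with morphine in wild-type libraries went from 798 to 512 and between naive genotypes from 164 to 89. Only 3 of 24 same-numbered pairs of libraries deviated together (r above 0.1, median -0.0079), and in 4 of 24 cases a library was best matched by its own number, so the numbers were not taken as pairing. Over all genes, DESeq2's Wald test called 1242, 376, 202 and 434 genes where edgeR called 798, 164, 96 and 277 (wild-type morphine, naive genotype, genotype under morphine, genotype average). With the serotonin covariate the 3 morphine comparisons had 349, 304 and 456 calls against 798, 2082 and 3089, and without both doubted libraries there were 104 against 164 and 236 against 96 calls between genotypes and 64 against 0 in the interaction; these are totals, and shared genes were not counted. Only the groups compared gave 410 against 798. No filter gave 1 against 0 in the interaction. Without 1 library the 7 counts ran from 378 to 1252, 1037 to 2341, 68 to 210, 49 to 129, 0 to 56, 2399 to 3302 and 216 to 298. The causes were not tested.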
